A study of Homo sapiens with 4 samples.

Results

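The peroxiredoxins are a family of 6 genes, PRDX1 to PRDX6, and all 6 were among the 63677 genes counted by RNA-seq in HCT116 cells, an established human colorectal cancer line. The cells had been transfected with an antisense oligonucleotide (ASO) complementary to 21 nt of GAA repeat (anti-GAA ASO) or with a control ASO that the study describes as non-targeting, for 48 h per the labels, while the methods name a shorter transfection. Each ASO had 2 libraries, which carried the number 232 (replicate 1) or 234 (replicate 2) in their titles, and no untreated library was analysed here. The anti-GAA ASO had 2′-O-methoxyethyl ends and a central DNA stretch, a design through which RNase H can cut a bound RNA. The 6 genes were taken by name, through their Ensembl identifiers. PRDX2 was selected for comparison with the other 5 on the anti-GAA and control values of these same libraries, so every difference between the ASOs given for a member is a description, and no evidence is read from the calls listed beside it. The labels name neither separate cultures nor what the replicate number marks. The methods speak of duplicate experiments without saying how these were separated, so the spread between libraries may be technical.

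Peroxiredoxins are thiol peroxidases that reduce hydrogen peroxide, organic hydroperoxides and peroxynitrite through a reactive cysteine. In PRDX1 to PRDX4 the oxidised cysteine forms a disulfide with a partner subunit, and in PRDX5 it does so within the same chain. Thioredoxin then reduces the disulfide of PRDX1, PRDX2, PRDX3 and PRDX5. PRDX6 works with a single reactive cysteine and draws on glutathione through glutathione S-transferase pi. PRDX1 and PRDX2 lie mostly in the cytosol, PRDX3 in mitochondria, PRDX4 in the endoplasmic reticulum, and PRDX5 in mitochondria, peroxisomes and the cytosol. PRDX2 is best known as an abundant protein of red blood cells, and members of the family are often raised in tumours.

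Total counts on genes lay between 10538284 and 17894953 per library, the lowest in anti-GAA replicate 1. Values below are counts scaled to library size (CPM) after TMM normalisation, and level differences between libraries are on the log2 CPM scale with a prior count of 2 unless given as a fold. All 5 epithelial markers listed (EPCAM, CDH1, KRT8, KRT18 and KRT19) were counted in the libraries, and their summed level was between 2552 and 2894 CPM. EPCAM, CDH1, KRT8 and KRT18 were lower in both anti-GAA libraries than in both controls, as were 16.9% of all tested genes. Their log2 fold changes were −0.21 (SE 0.18), −0.40 (SE 0.25), −0.27 (SE 0.2) and −0.54 (SE 0.22). With the ASO as the only term, none of these genes was called by edgeR's quasi-likelihood test (adjusted p = 0.996 for each). KRT19 was at 1327 and 1639 CPM with anti-GAA and at 1114 and 1366 CPM with control. Of the red cell markers reported here, ALAS2 was at 0 in all 4 libraries and HBB had 0 and 0 counts with anti-GAA and 11 and 16 counts with control, where it stood at 0.717 and 0.944 CPM. The other lists had PTPRC and VWF under 1 CPM with CD3E and PECAM1 at 0, and for fibroblasts COL1A1 between 10.1 and 14.6 CPM with COL1A2 and DCN at 0. Their part in the results was not tested.

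Because the ASO pairs with GAA repeats, the transcripts of the family were read for the stretch that most resembles its target. The windows below are the best 21-nt matches in PRDX2, which stood apart in its levels, in PRDX1, the member with the highest level, and in PRDX6, the member with the longest GAA run. They are written 5′ to 3′ on the RNA strand with T for U, and capitals mark bases identical to the repeat.
PRDX2: cAAagAGgtGAAGctGtcGgA
PRDX1: tAtGAtGtAttAGtAGAgcAA
PRDX6: cctGAAGAAGAAGccaAAaAA
Sequences and positions are from GENCODE 44 on GRCh38, whereas the authors counted on hg19, and no position was converted. The PRDX2 window lies at chr19:12801167-12801187 on the minus strand, in coding sequence of exon 2 of the canonical transcript. It matched the repeat at 11 of 21 bases. The PRDX1 window lies in the 3′ UTR, at chr1:45511092-45511112 on the minus strand, and matched at 12 bases. The PRDX6 window lies in coding sequence of exon 5, at chr1:173487768-173487788 on the plus strand, and matched at 14 bases, 10 of them in an unbroken run.

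None of the 6 longest transcripts held an unbroken GAA run of 12 nt or more. Only annotated transcript sequences were read, and intron sequence outside them was not searched. The longest run was 10 nt in PRDX6, 7 nt in PRDX1 and in PRDX3, 6 nt in PRDX4 and in PRDX5, and 5 nt in PRDX2. For PRDX2 and PRDX3 the longest transcript is a non-coding one with a retained intron. Their canonical protein-coding transcripts had runs of 5 nt and 6 nt. Of 14751 tested genes with a transcript, 9.35% had a run at least as long as that of PRDX6. For PRDX2 this share was 98.8%. The median run of tested genes was 7 nt, and PRDX6 was the only member above it. PRDX2 was at the short end in this search. When all its annotated transcripts were read its longest run was 7 nt, for which no matching median over all transcripts of the tested genes is given here. The best match was 11 to 14 of 21 bases across the family against a median of 14 bases among tested genes. For scale, the 94 tested genes with a run of at least 15 nt had a median log2 fold change (anti-GAA over control) of −0.42. Of these genes 84.0% lay below 0, against 48.4% of all tested genes. No tested gene passed the adjusted p threshold in this fit, and the reason for this difference was not tested.

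PRDX1, the major cytosolic peroxiredoxin, had by far the most RNA of the family. PRDX1 (ENSG00000117450, chr1:45510914-45542732, minus strand) stood at 3317 and 2381 CPM in anti-GAA replicates 1 and 2, and at 2486 and 1722 CPM in control replicates 1 and 2. Within each replicate number the anti-GAA library was the higher one, by 1.33-fold in replicate 1 and 1.38-fold in replicate 2. The groups overlapped nevertheless, because both replicate 2 libraries lay below the replicate 1 library of the same ASO. The means were 2849 ± 662 CPM with anti-GAA and 2104 ± 540 CPM with control (SD, n = 2 each), with a log2 fold change of 0.44 (SE 0.27). This value was 0.19 without anti-GAA replicate 1, 0.21 without control replicate 2, 0.66 without anti-GAA replicate 2 and 0.72 without control replicate 1.

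PRDX2 (ENSG00000167815, chr19:12796820-12801800, minus strand), the other cytosolic enzyme, had 173 and 2186 counts in anti-GAA replicates 1 and 2 and 447 and 2018 counts in control replicates 1 and 2. These were 17.5 and 123 CPM with anti-GAA, and 29.1 and 119 CPM with control. Both replicate 1 libraries were thus low and both replicate 2 libraries high, whichever ASO the cells had received. PRDX2 was 7.03-fold higher in replicate 2 than in replicate 1 with anti-GAA and 4.08-fold higher with control. Counting error was small beside these folds, with exact 95% Poisson intervals of 15 to 20.3 CPM and 26.5 to 32.0 CPM in the replicate 1 libraries of anti-GAA and control, and of 118 to 128 CPM and 114 to 124 CPM in those of replicate 2 (counting error only). The intervals of the replicate 1 libraries did not overlap, and those of the replicate 2 libraries did.

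Between the ASOs, PRDX2 was at 0.6 times the control level in replicate 1 and at 1.03 times in replicate 2. These were log2 differences of −0.73 and 0.05, with a mean of −0.34 ± 0.55 (SD over 2 replicate numbers). The group means were 70.2 ± 74.5 CPM with anti-GAA and 74.1 ± 63.5 CPM with control (SD, n = 2 each), and the log2 fold change of −0.07 had an SE of 0.89. The difference between the group means was therefore far inside the spread between libraries, which here includes the difference between replicate numbers. Single libraries set the sign of the log2 fold change. It was 0.74 without anti-GAA replicate 1, −2.08 without anti-GAA replicate 2, −0.77 without control replicate 1 and 1.28 without control replicate 2. The fit without anti-GAA replicate 2 sets 1 library against 2, and although PRDX2 was among the 0.0126% of 15874 genes past its threshold for a lower level, this is no evidence, since PRDX2 was chosen on these values.

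**Figure D1:**
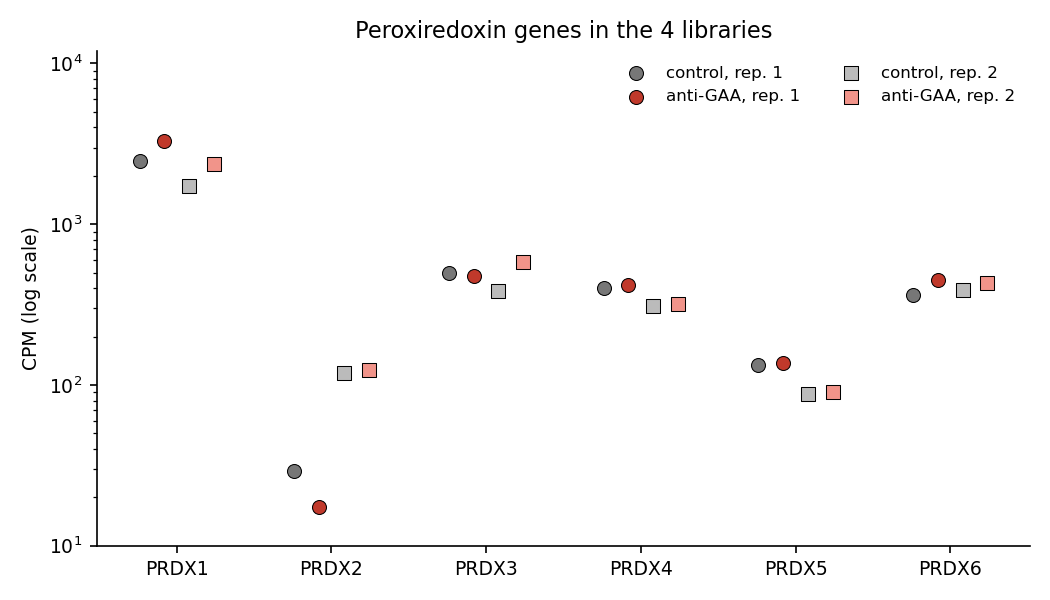
Level of each peroxiredoxin gene in CPM (log axis) in the 4 libraries, circles for replicate 1 and squares for replicate 2, grey for control and red for anti-GAA, 1 point per library. PRDX2 is the one member with both replicate 1 libraries (17.5 and 29.1 CPM) far below both replicate 2 libraries (123 and 119 CPM).

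PRDX3, the mitochondrial member (ENSG00000165672, chr10:119167720-119178812, minus strand), had 475 and 586 CPM in anti-GAA replicates 1 and 2 and 500 and 382 CPM in control replicates 1 and 2. Its groups overlapped and its direction differed between replicate numbers, with log2 differences of −0.08 in replicate 1 and 0.62 in replicate 2. The log2 fold change was 0.27 (SE 0.23), and leaving out 1 library at a time moved it from 0.09 without control replicate 2 to 0.46 without control replicate 1, with 0.11 without anti-GAA replicate 2 and 0.42 without anti-GAA replicate 1.

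PRDX4, the member of the endoplasmic reticulum (ENSG00000123131, chrX:23664262-23686397, plus strand), differed little between the ASOs within each replicate number, as did PRDX5. It stood at 421 and 320 CPM in anti-GAA replicates 1 and 2 and at 400 and 308 CPM in control replicates 1 and 2. PRDX5 (ENSG00000126432, chr11:64318121-64321811, plus strand), which is sent to several compartments, stood at 137 and 90.4 CPM with anti-GAA and at 133 and 87.2 CPM with control. In both genes the groups overlapped and each replicate 2 library was lower than its replicate 1 counterpart. The log2 fold changes were 0.07 (SE 0.23) for PRDX4 and 0.05 (SE 0.29) for PRDX5, and both fell slightly below 0 with scaling to total counts (−0.03 and −0.05). Single libraries also set their sign. The values were −0.14 for PRDX4 and −0.27 for PRDX5 without anti-GAA replicate 1, and −0.10 and −0.22 without control replicate 2. They were 0.25 and 0.32 without anti-GAA replicate 2, and 0.26 and 0.37 without control replicate 1.

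PRDX6, the single-cysteine enzyme (ENSG00000117592, chr1:173477330-173488815, plus strand), was the steadiest member. It had 449 and 433 CPM in anti-GAA replicates 1 and 2 and 361 and 389 CPM in control replicates 1 and 2. Both anti-GAA libraries lay above both control libraries, which was true of no other member. The means were 441 ± 11.6 and 375 ± 19.8 CPM (SD, n = 2 each), and the log2 fold change was 0.24 (SE 0.18).

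With the ASO as the only term, edgeR's quasi-likelihood test called no member at an adjusted p threshold of 0.05, where 0% of 15116 tested genes were called lower and 0% higher, although 677 genes had an unadjusted p under 0.05, none of them a member. DESeq2 called no member either and called 0.0107% of 28017 genes lower. PRDX6 was the 1 of 6 members whose anti-GAA libraries both lay above both controls, as in 15.5% of tested genes, and 0 of 6 members lay below, as in 16.9% of tested genes. Within both replicate numbers, 4 of 6 members (PRDX1, PRDX4, PRDX5 and PRDX6) were higher with anti-GAA, as were 31.8% of tested genes, and 0 of 6 were lower, as were 30% of tested genes. The log2 fold change was above 0 in 5 of 6 members, all but PRDX2, and in 3 of 6 with scaling to total counts or with a correction for length and GC content, where PRDX4 and PRDX5 also lay below 0. Without anti-GAA replicate 1 or without control replicate 2 it was above 0 in 4 of 6 members, PRDX2 among them, and below 0 in PRDX4 and PRDX5. The median over the 6 members was 0.151, beside 0.013 over all tested genes.

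Several members differed between the replicate numbers by as much as or more than between the ASOs, and not in one direction. From replicate 1 to replicate 2, PRDX2 was higher by 2.80 with anti-GAA and by 2.02 with control on the log2 scale. PRDX1, PRDX4 and PRDX5 were lower in replicate 2 with both ASOs, and the values of the 2 ASOs lay close together. These log2 differences were −0.48 and −0.53 for PRDX1, −0.39 and −0.38 for PRDX4, and −0.60 and −0.61 for PRDX5 (anti-GAA and control). PRDX3, at 0.30 and −0.39, and PRDX6, at −0.05 and 0.11, had no common direction. Of all tested genes, 33.8% were lower and 35.7% higher in replicate 2 with both ASOs, and the median absolute difference was 0.33 with anti-GAA and 0.32 with control. The replicate number is all the labels give for this axis, and what differed between the replicates was not tested.

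**Figure D2:**
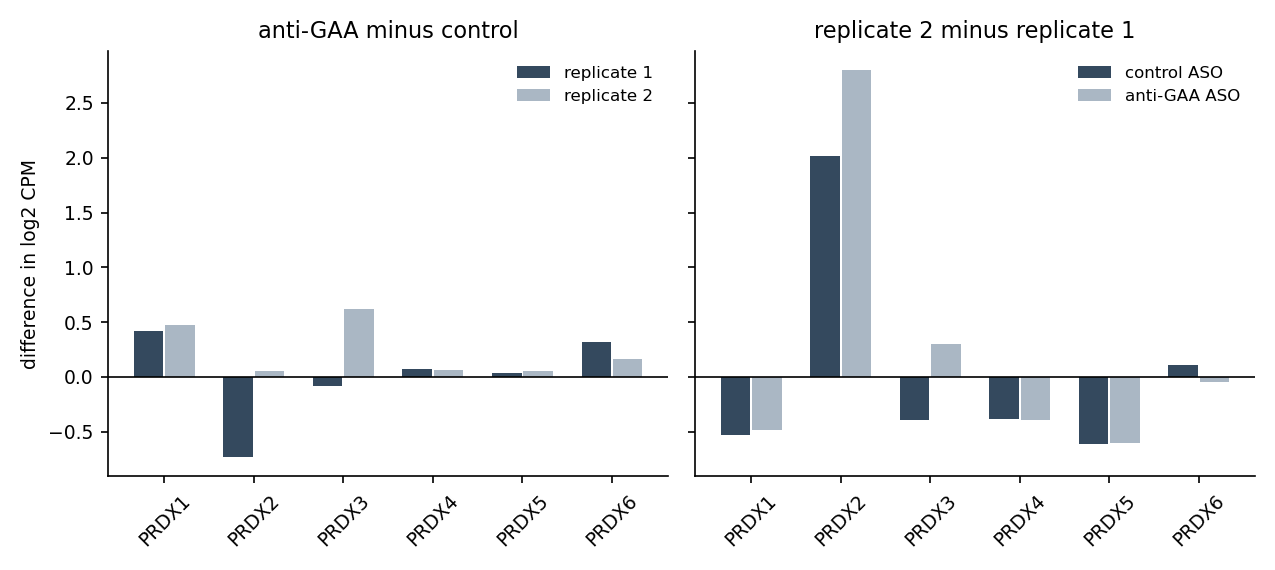
Differences in log2 CPM for each member, between the ASOs within replicates 1 and 2 (left) and between the replicate numbers within each ASO (right), 1 bar per pair of libraries on a shared axis. The bars of PRDX2 reach 2.02 and 2.80 on the right and −0.73 and 0.05 on the left.

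Over the 4 libraries, the highest PRDX2 level was 7.03 times the lowest. The corresponding folds were 1.93 for PRDX1, 1.57 for PRDX5, 1.53 for PRDX3, 1.37 for PRDX4 and 1.25 for PRDX6. Among the 8894 genes that averaged 10 CPM or more, 0.124% (11 genes, PRDX2 among them) had a range at least that wide, and 78.0% one at least as wide as that of PRDX6. The family thus held both a gene near the extreme of these genes and one that varied less than most of them. At least 2.02 log2 units higher in replicate 2 with both ASOs were 2 of these 8894 genes, PRDX2 and NDRG1, and 7 differed by that much in either direction. Among all 15116 tested genes, which include those with low counts, 19 (0.126%) were that much higher and 38 (0.251%) differed by that much in either direction. These counts were made after the PRDX2 values had been seen.

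**Figure D3:**
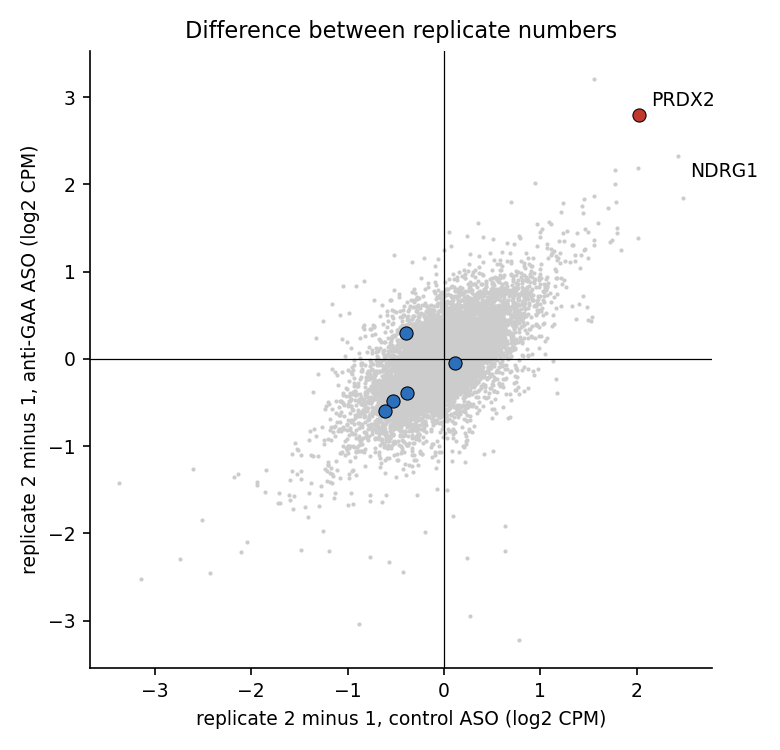
Difference between replicates 2 and 1 in log2 CPM with control (x axis) and with anti-GAA (y axis) for the genes that averaged 10 CPM or more (grey), with PRDX2 in red and the other 5 peroxiredoxins in blue. PRDX2, at 2.02 and 2.80, lies at the edge of the cloud, while the other 5 lie between −0.61 and 0.30 on both axes.

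Set against its own family, PRDX2 can be followed without regard to library scaling. Its log2 CPM minus the mean of the other 5 was −4.90 and −1.86 in anti-GAA replicates 1 and 2, and −4.02 and −1.63 in control replicates 1 and 2. The gap was wider with anti-GAA within both replicate numbers, by 0.89 in replicate 1 and 0.22 in replicate 2 (signed change −0.56 ± 0.47, SD over 2 replicate numbers). In replicate 2 this came from the mean of the other 5, which was 0.27 higher with anti-GAA, as PRDX2 itself was 0.05 higher. The gap narrowed from replicate 1 to replicate 2 by 3.05 with anti-GAA and by 2.38 with control, which was again larger than the change between the ASOs. In the fit over all libraries PRDX2 stood 0.28 below the others in its log2 fold change, and leaving out single libraries moved this value from −2.40 without anti-GAA replicate 2 to 1.22 without control replicate 2, with −1.17 without control replicate 1 and 0.66 without anti-GAA replicate 1.

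Levels of different genes were compared per length, as TPM, in which counts are divided by length before scaling, on the union of annotated exons. PRDX1 was at 4357 and 3497 TPM in anti-GAA replicates 1 and 2 and at 3518 and 2762 TPM in control replicates 1 and 2, and ranked first in all 4 libraries. It made up 62.8% to 73.0% of the summed level of the family, lowest in control replicate 2 and highest in anti-GAA replicate 1. PRDX2 was at 19.0 and 149 TPM with anti-GAA and at 34.1 and 158 TPM with control, and ranked last in all 4 libraries. Its share of the family was 0.318% and 2.86% with anti-GAA, and 0.662% and 3.59% with control.

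On the exon union, PRDX3, PRDX4, PRDX5 and PRDX6 filled the middle ranks between 260 and 513 TPM and changed places from library to library. PRDX4 was above PRDX5 in all 4 libraries, by 0.48 to 0.72 on the log2 scale, and PRDX6 was above PRDX3 and PRDX5 in all 4. On this length PRDX4 and PRDX6 had no constant order, with a log2 ratio of −0.12 to 0.47, nor were PRDX3 and PRDX5, with −0.18 to 0.72. PRDX1 was above the next member by at least 2.61 log2 units in each library, and PRDX2 below PRDX5 by 0.79 or more. The order below PRDX1 depended on the length used. Per canonical transcript PRDX3 ranked above PRDX6 in all 4 libraries, and per longest transcript it did so in anti-GAA replicate 2 and control replicate 1. Per longest and per canonical transcript PRDX4 was above PRDX6, and PRDX3 above PRDX5, in all 4 libraries. Per canonical transcript PRDX2 ranked above PRDX5 in both replicate 2 libraries, at 3.56% against 2.82% of the family with anti-GAA and 4.51% against 3.56% with control. The family as a whole took 0.452% and 0.391% of all counts in anti-GAA replicates 1 and 2 and 0.391% and 0.32% in control replicates 1 and 2.

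**Figure D4:**
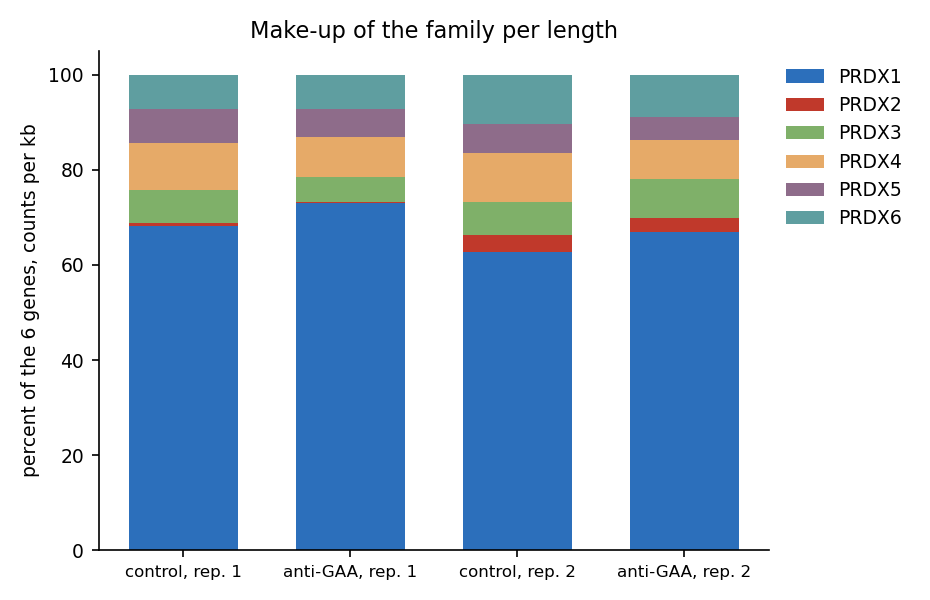
Share of each peroxiredoxin in the summed level of the 6 genes (counts per kb of exon union, percent), stacked from PRDX1 at the foot, 1 bar per library. PRDX1 takes 62.8% to 73.0%, and the PRDX2 band is thin in the replicate 1 bars (0.662% and 0.318%) and wider in the replicate 2 bars (3.59% and 2.86%).

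Reads from near-identical copies could shift these counts, so the 12 other annotated PRDX genes, 11 pseudogenes and the antisense gene PRDX6-AS1, were read too. The 4 pseudogenes of PRDX2 held 20 counts over all libraries, against 4824 counts on PRDX2. Of these, PRDX2P4 had 0 and 8 counts with anti-GAA and 2 and 6 with control, PRDX2P2 had 2 counts in all, and PRDX2P1 and PRDX2P3 had 1 each. The counted pseudogene copies of PRDX2 were therefore few beside the gene itself. PRDX1P1 was the one pseudogene with many counts, 413 and 700 with anti-GAA and 547 and 388 with control, equal to 1.26% to 1.65% of the counts of PRDX1. PRDX3P1, PRDX3P2 and PRDX5P1 had 5 counts each in all, and 3 pseudogenes had none. How reads matching several copies were counted is not given in the sources used here. Values of PRDX1P1 are therefore uncertain, and low pseudogene counts cannot show whether the members kept all their reads.

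PRDX6-AS1, annotated across PRDX6 on the opposite strand, had 18 to 24 counts per library against 4446 to 7700 on PRDX6. MMACHC, a cobalamin-handling gene that overlaps the end of PRDX1 on the opposite strand, was at 13.9 to 17.6 CPM. Whether reads were counted by strand is not given in the sources used here, so reads in these overlaps cannot be assigned to one gene.

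The tested genes next to PRDX2 did not follow its difference between replicate numbers. JUNB, a subunit of the AP-1 transcription factor 3505 nt away on the opposite strand, had 48.8 and 44.6 CPM in anti-GAA replicates 1 and 2 and 53.4 and 48.1 CPM in control replicates 1 and 2. HOOK2, a microtubule-binding linker whose annotated body overlaps PRDX2 on the same strand, had 29.6 and 25.1 CPM with anti-GAA and 24.6 and 24.5 CPM with control. In log2 terms JUNB was lower in replicate 2 by 0.13 with anti-GAA and 0.15 with control (−0.13 and −0.15), and HOOK2 differed by −0.24 with anti-GAA. Near the other members, the levels of AKR1A1 beside PRDX1 (231 to 262 CPM), SFXN4 beside PRDX3 (80.0 to 112 CPM), ACOT9 beside PRDX4 (133 to 159 CPM), and CCDC88B beside PRDX5 (15.4 to 24.0 CPM) are given by their range over the 4 libraries. GRK5, on the far side of PRDX3, ranged from 15.2 to 28.0 CPM. TRMT112, 562 nt from PRDX5 on the opposite strand, was at 169 and 137 CPM with anti-GAA and at 160 and 94.5 CPM with control, lower in replicate 2 with both ASOs as PRDX5 was. HIKESHIP1 and ANKRD45, the tested neighbours furthest from PRDX4 and PRDX6, held at most 15 counts in any library.

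The 5 genes whose centred log2 CPM over the 4 libraries lay closest to that of PRDX2 were chosen by Euclidean distance among 8888 genes that averaged 10 CPM or more. NDRG1, a stress-responsive gene of the NDRG family, came first at a distance of 0.68, where a flat profile would be at 2.47. It had 90.0 and 450 CPM with anti-GAA and 76.9 and 414 CPM with control. BNIP3L, a mitophagy receptor, followed at 0.70 with 26.1 and 118 CPM against 26.7 and 91.7 CPM. All of these profiles were low in both replicate 1 libraries and high in both of replicate 2.

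MRC2, an endocytic collagen receptor, lay at 0.75 with 4.45 and 16.3 CPM with anti-GAA and 4.63 and 26.5 CPM with control. The processed pseudogene ENSG00000219951 lay at 0.75 with 54.4 and 504 CPM against 80.1 and 235 CPM. WNT16, a Wnt ligand, lay at 0.82 with 24.8 and 88.4 CPM against 31.2 and 85.8 CPM. The log2 difference between the ASOs in replicate 1 was −0.73 for PRDX2, −0.56 for the pseudogene and −0.33 for WNT16, and −0.06 to 0.23 for NDRG1, BNIP3L and MRC2. With 4 libraries these likenesses rest on the replicate number above all.

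The thioredoxin system, which recycles PRDX1, PRDX2, PRDX3 and PRDX5, was read through its own genes. TXN, the cytosolic thioredoxin, had 1035 and 776 CPM in anti-GAA replicates 1 and 2 and 772 and 553 CPM in control replicates 1 and 2, with a log2 fold change of 0.45 (SE 0.25). As with PRDX1, the anti-GAA library was the higher one within each number (0.42 and 0.49) and replicate 2 the lower one within each ASO (−0.42 and −0.48). TXNRD1, the cytosolic thioredoxin reductase, had the same order of libraries within each number, with 1309 and 994 CPM against 1100 and 834 CPM and a log2 fold change of 0.25 (SE 0.24).

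The mitochondrial counterparts were lower and differed little or in the other direction. TXN2, mitochondrial thioredoxin, had 177 and 143 CPM with anti-GAA and 185 and 134 CPM with control (log2 fold change 0.01, SE 0.24). TXNRD2, its reductase, had 8.08 and 6.63 CPM against 12.3 and 7.73 CPM (log2 fold change −0.45, SE 0.33), lower with anti-GAA within each number although the groups overlapped. GSTP1, the glutathione transferase that serves PRDX6, had 843 and 795 CPM against 698 and 784 CPM (log2 fold change 0.14, SE 0.19). SRXN1, sulfiredoxin, which restores over-oxidised peroxiredoxins, had 0 and 0 counts with anti-GAA and 1 and 1 with control, and was not tested.

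Of 31 partner and other antioxidant genes listed, 30 were matched by identifier and 24 could be tested. In edgeR's quasi-likelihood test none was called in either direction (0% of all tested genes), and 1, SESN2, had an unadjusted p under 0.05. SESN2, a stress-induced sestrin linked to peroxide handling, had 136 and 71.1 CPM with anti-GAA and 68.5 and 49.1 CPM with control, both anti-GAA libraries above both controls (log2 fold change 0.82, SE 0.34). The median log2 fold change of the 24 genes was 0.178, with a range of −0.45 to 0.91, beside a median of 0.013 over all tested genes. Of the 24 genes, 17 lay above 0 and 7 below, where 48.4% of all tested genes lay below 0. Groups that did not overlap were found for 7 genes higher and 2 lower with anti-GAA, where 15.5% and 16.9% of tested genes had such an order. TXNIP and SOD3 were at 0 in all libraries.

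By replicate number, 10 of the 24 tested genes (41.7%) were higher and 10 (41.7%) lower in replicate 2 with both ASOs. Of all tested genes, 35.7% were higher and 33.8% lower. GPX8, a peroxidase of the endoplasmic reticulum, was the one gene of the list at least 1 log2 unit apart in the same direction with both ASOs, at 59.7 and 23.9 CPM with anti-GAA and 49.6 and 17.2 CPM with control. It was lower in replicate 2, where PRDX2 was higher. CAT, catalase, had 74.9 and 142 CPM with anti-GAA in replicates 1 and 2, and 66.9 and 134 CPM with control. GLRX, glutaredoxin, had 47.2 and 101 CPM with anti-GAA, and 46.4 and 85.4 CPM with control. Both were higher in replicate 2, as PRDX2 was. On the log2 scale CAT was higher by 0.92 with anti-GAA and 1.0 with control, and GLRX by 1.09 and 0.88.

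**Figure D5:**
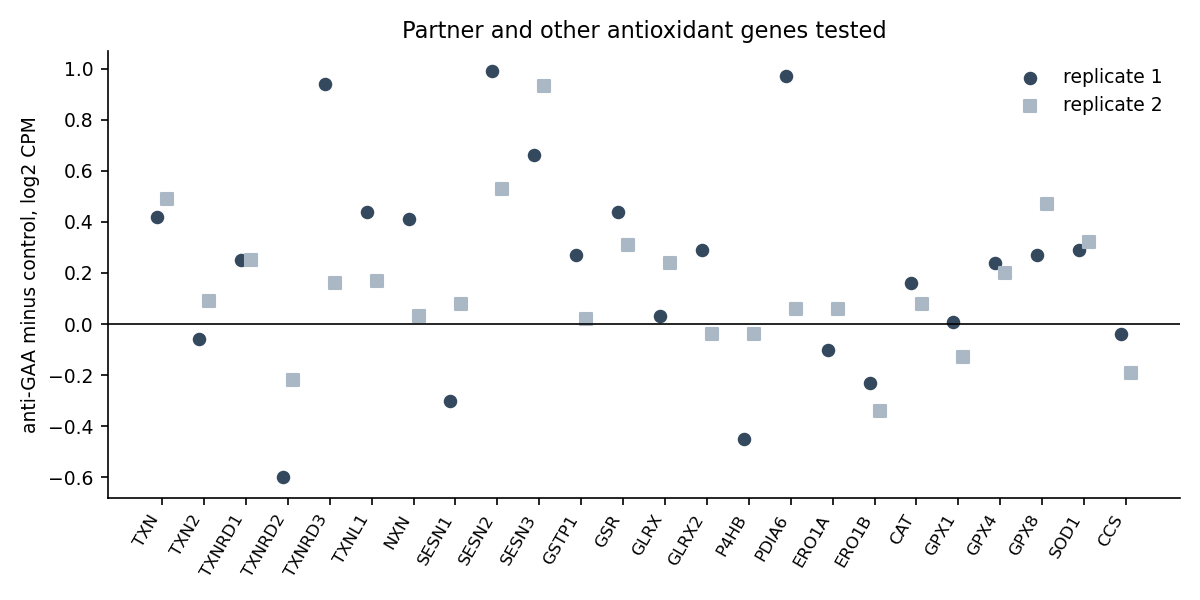
Difference between anti-GAA and control in log2 CPM for the 24 tested partner and other antioxidant genes, circles for replicate 1 and squares for replicate 2, 1 point per pair of libraries. SESN2 lies above 0 in both replicates, TXNRD2 below 0 in both, and 17 of the 24 genes had a log2 fold change above 0.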

How the data were processed

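HCT116 cells with the anti-GAA or the control ASO were sequenced in 2 libraries each. The labels name a total RNA kit and the methods a stranded mRNA kit. The authors aligned trimmed reads with STAR to hg19 and counted them per Ensembl gene with featureCounts, and the deposited values are raw counts, whole numbers without normalization. The strand setting is not given in the sources used here. The authors' own test was DESeq2.

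Counts were tested in R 4.3.3 with edgeR 4.0.16 (quasi-likelihood, TMM, filterByExpr, 15116 genes, Benjamini-Hochberg over all of them, threshold 0.05), with the ASO as the only term. The fits were tested on simulated counts. Alternatives were DESeq2 1.42.0, edgeR with the size factors of DESeq2 or with plain total counts, leaving out the filter or keeping genes that averaged 1 CPM or more, offsets for length and GC content (mgcv 1.9.3), the replicate number as a block, and leaving out each library. Tables were summarised in Python 3.11.15 with numpy 2.4.6 and pandas 2.3.3. Identifiers were joined to GENCODE 44, which matched 52181 of 63677 genes. GAA runs were searched in the longest transcript, and the canonical transcript was added as an alternative after the data had been seen.

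Beside the 6 members, the genes named were PRDX pseudogenes and antisense genes with counts, the nearest tested gene on each side, 6 direct partners, partners past the threshold with or without the block, and the 5 profiles nearest to PRDX2. GPX8, CAT, GLRX, TXNIP and SOD3 were picked once their values were known. Members and lists were chosen with earlier results of these data known. 1 listed marker gene is not reported here.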

Additional observations from a re-analysis of the deposited data

How the results depend on the processing

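None of the 6 members was called under any alternative other than leaving out anti-GAA replicate 2, where PRDX2 was. Over all genes, 0 were called lower and 0 higher, and DESeq2 called 3 lower, edgeR without a filter 111 lower and 5 higher, the replicate block 207 lower and 51 higher, and the block with the length and GC correction 328 lower and 124 higher. Leaving out each library gave 0 to 16 lower and 0 to 3 higher, with 2 lower and 3 higher without anti-GAA replicate 2, 16 lower and 2 higher without control replicate 1, and 0 in both directions without either of the others, where the lone library is assumed to vary like the others. The replicate numbers share only a number here, since the labels do not say what it marks. The deviations of same-numbered libraries had a correlation of 0.564 across genes, which are not independent replicates. With the replicate block, the common dispersion was 0.0148 in place of 0.0549, the log2 fold change of PRDX2 was −0.30 (SE 0.18), its difference from the other 5 was −0.51 (−0.49 with the length and GC correction), and 1 partner gene, SESN2, was called higher (log2 fold change 0.76, adjusted p = 0.0198 by edgeR), as was 1 with the length and GC correction. In the same block fit PRDX1 had a log2 fold change of 0.44 (SE 0.16). It was the 1 member among 2503 of 15116 genes with an unadjusted p under 0.05 by edgeR. The log2 fold change of PRDX6 (0.24) was 0.14 with total counts, 0.15 with the length and GC correction and 0.15 with this and the block. Leaving out each library gave 0.19 to 0.72 for PRDX1, 0.09 to 0.46 for PRDX3, −0.14 to 0.26 for PRDX4, −0.27 to 0.37 for PRDX5, 0.17 to 0.30 for PRDX6, −2.08 to 1.28 for PRDX2 and −2.40 to 1.22 for PRDX2 minus the other 5. The mean family share per longest transcript was 13.1% for PRDX4 and 4.46% for PRDX5, and per canonical transcript 8.45% for PRDX3, 10.2% for PRDX4, 3.46% for PRDX5 and 6.56% for PRDX6. The longest GAA run was 7 nt over all transcripts of PRDX2 and 6 nt in the canonical transcript of PRDX3. Of the alternative values, 128 stayed within the spread between replicates or within 1.5 times the count and 28 moved past it. Where no cause is named, the cause was not tested. With 2 libraries per ASO, the spread of a single gene is known only through the fit across genes.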
